A study of Homo sapiens with 6 samples.

Results

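The PAX, LHX, IRX, DLX, NKX, TBX and SIX-family genes encode transcription factors of embryonic development. Their members were taken from the GENCODE release 44 annotation of GRCh38 as every protein-coding gene whose symbol is one of these family names followed by its number, a rule that no HOX gene meets. This gave 62 of the 19970 protein-coding genes on the chromosomes that held peaks, with 14 NKX, 13 TBX, 9 PAX, 8 LHX, 6 DLX, 6 IRX and 6 SIX-family genes. The rule reads gene symbols and no peak values.

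The chromatin immunoprecipitation sequencing (ChIP-seq) libraries came from the established triple-negative breast cancer line MDA-MB-231, of human origin, and each of the 6 groups had 1 library. E2F1, an activator of cell cycle genes, was immunoprecipitated from untreated cells, from cells kept for 72 h in the solvent DMSO and from cells kept for 72 h with 1 µM GSK126, an inhibitor of the methyltransferase EZH2. Histone H3 trimethylated at lysine 27 (H3K27me3) was immunoprecipitated after 24 h of transduction with either a control shRNA or shE2F1, an shRNA that targets E2F1, and 72 h of selection in puromycin at 2 µg/ml. An input of untreated cells was not analysed here. H3K27me3 was thus read without drug and E2F1 without shRNA, so E2F1 and H3K27me3 were not read in the same treated cells. The lists hold no expression values, so neither the loss of E2F1 nor the identity of the line was checked here.

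Polycomb repressive complex 2, whose catalytic subunit is EZH2, places H3K27me3 on chromatin. Developmental transcription factor genes that a cell does not use are the textbook targets of this complex, often as broad H3K27me3 domains that run over CpG-rich promoters and whole gene bodies. PAX proteins carry a paired domain, LHX proteins pair LIM domains with a homeodomain, IRX, DLX, NKX and SIX-family proteins are further homeodomain classes, and TBX proteins bind DNA through the T-box.

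The control shRNA list held 123957 H3K27me3 peaks over 143 Mb, 4.72% of the chromosomes, and the shE2F1 list held 135683 peaks over 179 Mb, 5.90% of them. The E2F1 lists held 1056 peaks in untreated, 15703 in DMSO and 14276 in GSK126 cells. The background that the peak caller assumed at the quietest E2F1 peaks was 0.668 fragments in untreated, 1.82 in DMSO and 1.70 in GSK126 cells. Fewer peaks were thus listed where this background was lowest, and how far it stands for depth was not tested. With 1 library per group no difference between conditions could be tested. The intervals given are exact 95% Clopper-Pearson intervals of a share of genes, and they cover counting error only. The strength of a peak is given by the fold, the signal over the local background, and by −log10 q, where q is the p-value of the peak adjusted over the genome by the authors' peak caller.

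A few stretches of GRCh38 show what the peaks lay on. The first 3 are the 250 bases upstream of a RefSeq start site, printed 5′ to 3′ along the gene with each CG in capitals. TBX6, a T-box gene of the early somite, was chosen because its H3K27me3 promoter peak had the highest −log10 q of the 62 genes. NKX1-2 was chosen for a CpG-dense start under H3K27me3. PAX4, a gene of the pancreatic islet, was chosen for a start without any CpG under H3K27me3. The TBX6 stretch, chr16:30091925-30092174 on the minus strand, holds 28 CpGs and lay 94% and 100% under H3K27me3 peaks in control shRNA and shE2F1 cells and 100% under an E2F1 peak in GSK126 cells. The NKX1-2 stretch, chr10:124450036-124450285 on the minus strand, holds 36 CpGs and was 49.6% and 100% under H3K27me3 peaks. The PAX4 stretch, chr7:127616028-127616277 on the minus strand, holds 0 CpGs and was 100% under H3K27me3 peaks in both libraries. The median over all RefSeq promoters was 11 CpGs in these 250 bases, and over the 65 promoters found for 42 of the 62 genes it was 17.
TBX6: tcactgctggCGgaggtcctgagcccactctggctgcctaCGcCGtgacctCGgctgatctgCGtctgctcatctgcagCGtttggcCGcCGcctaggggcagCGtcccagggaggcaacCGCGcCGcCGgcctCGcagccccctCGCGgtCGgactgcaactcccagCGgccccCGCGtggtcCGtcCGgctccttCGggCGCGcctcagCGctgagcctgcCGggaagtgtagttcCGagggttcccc
NKX1-2: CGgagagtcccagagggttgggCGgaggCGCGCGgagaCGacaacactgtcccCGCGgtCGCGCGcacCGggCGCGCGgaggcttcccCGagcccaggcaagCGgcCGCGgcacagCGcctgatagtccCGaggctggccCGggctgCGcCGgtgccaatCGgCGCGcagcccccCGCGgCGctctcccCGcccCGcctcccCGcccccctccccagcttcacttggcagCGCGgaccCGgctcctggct
PAX4: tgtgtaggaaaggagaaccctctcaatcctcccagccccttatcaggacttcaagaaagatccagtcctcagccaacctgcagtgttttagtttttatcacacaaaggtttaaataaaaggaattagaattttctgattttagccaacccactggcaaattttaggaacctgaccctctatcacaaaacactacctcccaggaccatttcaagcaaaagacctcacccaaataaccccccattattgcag

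The last stretch is the 201 bases around an E2F1 summit, with E2F motif words in capitals. The words searched, on both strands, were TTCCCGC, the common E2F site, and its variants with a changed middle, which were TTCGCGC and then TTGCCGC and finally TTGGCGC. LHX4 is shown because it was the only gene of the 62 with an E2F1 peak in untreated cells. The LHX4 window, chr1:180230986-180231186 on the plus strand, lies in a non-coding part of the gene with its centre 788 bp downstream of the nearest annotated start, and it holds 2 motif words.
LHX4: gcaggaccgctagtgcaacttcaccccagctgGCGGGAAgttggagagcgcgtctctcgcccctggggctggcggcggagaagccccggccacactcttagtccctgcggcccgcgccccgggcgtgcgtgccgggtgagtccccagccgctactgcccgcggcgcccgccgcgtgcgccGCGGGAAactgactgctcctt

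Promoter H3K27me3 was present at some of the 62 genes in both libraries, with PAX genes in the lead, and its share differed less between the libraries than it did over all genes. A promoter was the 1 kb on either side of any annotated transcription start site (TSS), and it was scored for H3K27me3 where any base of it lay under a peak. In control shRNA cells 24 of the 62 genes had such a peak, 38.7% (26.6 to 51.9), beside 27.1% of all protein-coding genes. In shE2F1 cells 30 had one, 48.4% (35.5 to 61.4), beside 51.2% of all genes. The interval of the first share holds the share of all genes near its lower end, and the second share is close to that of all genes. By the share of marked promoters alone the 62 genes, which are known as polycomb targets, were not separated from other genes beyond counting error in either library. The difference between the libraries was 9.68 percentage points for the 62 genes and 24.1 for all genes. Among 60 other developmental factor genes, such as OTX2, GATA6 and SOX2, 17 (28.3%) and 21 (35%) had a promoter peak in control shRNA and shE2F1 cells. Among 16 widely expressed genes, such as ACTB and GAPDH, 5 and 13 had one, 31.3% and 81.3%.

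**Figure D1:**
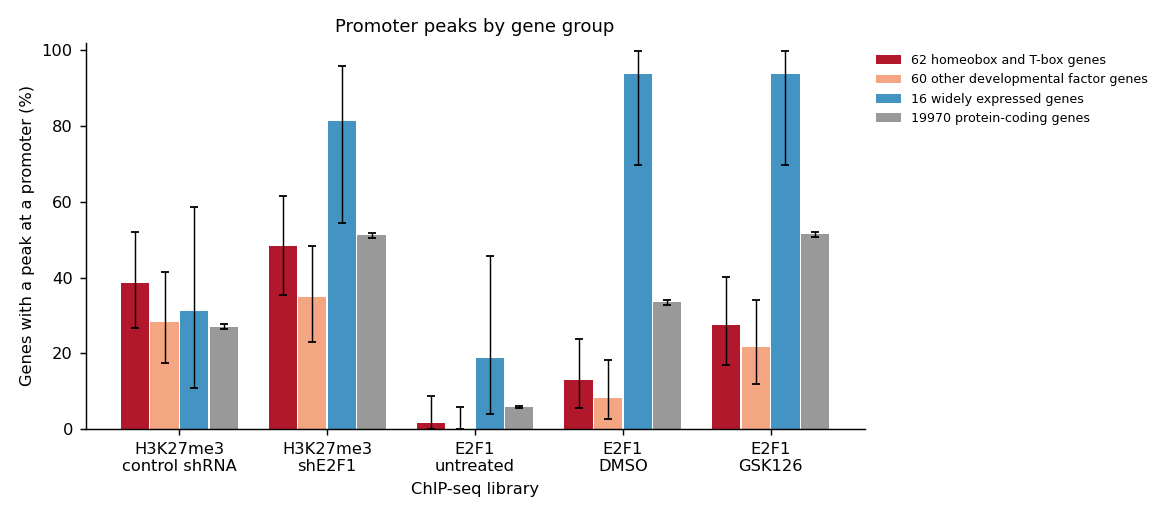
Percent of genes with a peak at a promoter in each of the 5 libraries, for the 62 homeobox and T-box genes, 60 other developmental factor genes, 16 widely expressed genes and all 19970 protein-coding genes, with exact 95% intervals as bars. The 62 genes stood at 38.7% and 48.4% for H3K27me3 and at 1.61%, 12.9% and 27.4% for E2F1.

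Gene by gene, 22 of the 62 (35.5%) had an H3K27me3 promoter peak in both libraries, beside 25.2% of all genes, and 30 (48.4%) had one in neither, beside 46.9%. In shE2F1 cells only, 8 genes had a peak, 12.9% (5.74 to 23.9), beside 26.0% of all genes. These were DLX6, IRX1, LHX9, SIX5, TBX1, TBX21, TBX3 and TBX5. In control shRNA cells only, LHX1, a gene of kidney and head formation, and TBX20, a heart gene, had a peak, 3.23% (0.393 to 11.2) beside 1.94% of all genes. Both of these peaks were weak, with a −log10 q of 1.23 at LHX1 and 1.31 at TBX20. Of the 8 genes marked only in shE2F1 cells, SIX5 alone had a −log10 q of 3 or more, at 3.80 with a fold of 3.44, and the other 7 lay between 1.14 and 2.33. The SIX5 peak, chr19:45768172-45769700, is 1529 bp wide and its middle is 81 bp upstream of a start of the gene. A −log10 q of 1.01 was the lowest value in either H3K27me3 list, so that several of these genes lay just inside the authors' threshold.

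**Figure D2:**
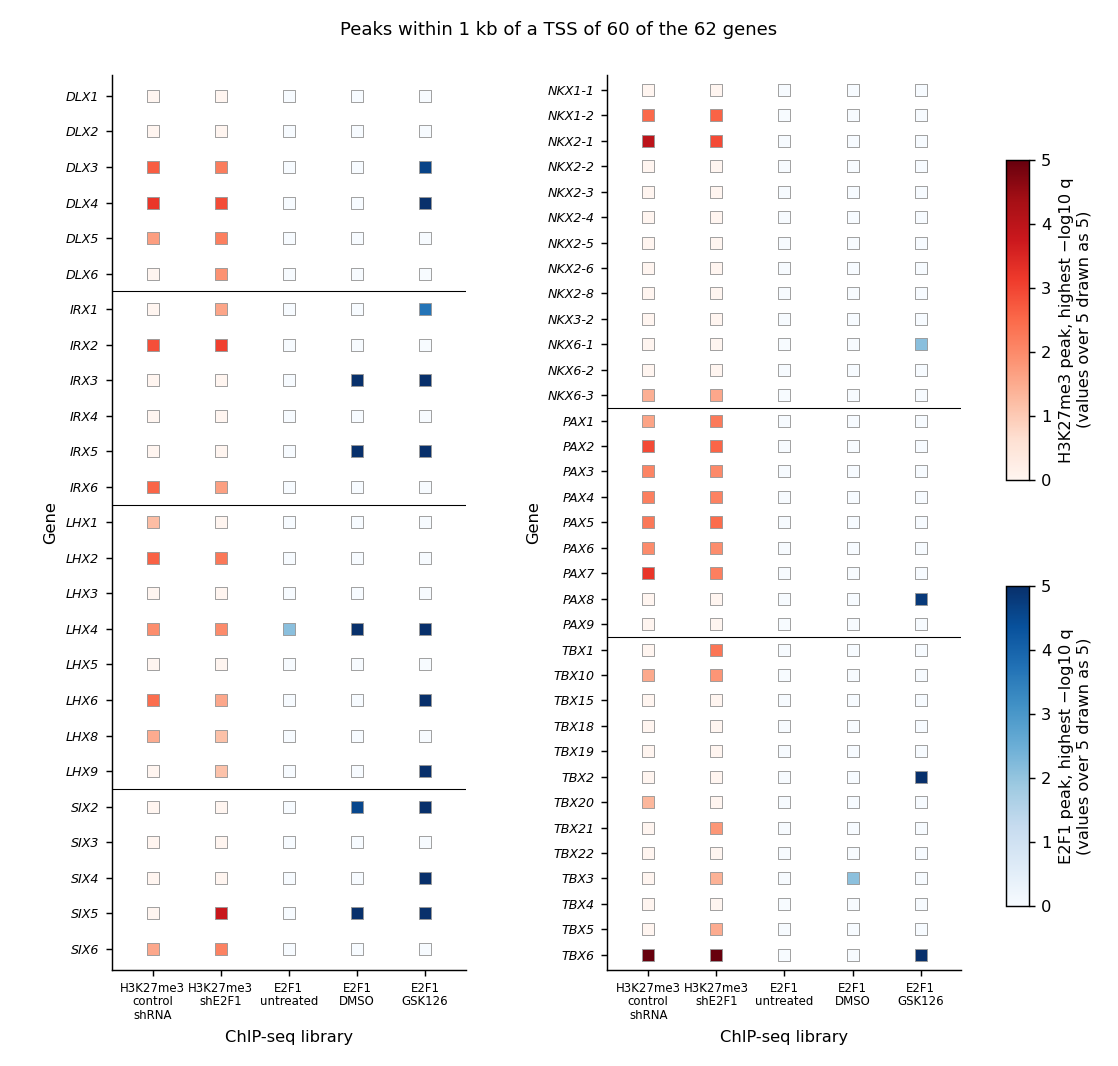
Highest −log10 q of a peak at a promoter of 60 of the 62 genes in the 5 libraries, by family, in red for H3K27me3 and blue for E2F1 (values over 5 drawn as 5, no peak as white). H3K27me3 values stayed at 3.99 or lower at every gene drawn except TBX6, where they were 20.1 and 23.0, and the rows from PAX1 to PAX7 are red in both libraries.

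The PAX family carried the most H3K27me3. In both libraries 7 of its 9 genes, PAX1 to PAX7, had a promoter peak, and PAX8 and PAX9 had none. Any annotated start counts here, and PAX3 has 14 and PAX5 9, beside a median of 3 over the 62 genes and 5 over all genes. In the 250 bases upstream of the RefSeq start, PAX3, PAX5 and PAX7 were 0% under H3K27me3 peaks in both libraries. PAX2, PAX4 and PAX6 had peaks over such stretches. The part of the number of starts in the family counts, and in the shares set beside all genes, was not tested. PAX7, a gene of muscle stem cells, had the highest −log10 q of the family in control shRNA cells, 3.24 with a fold of 4.08, and 2.17 with a fold of 3.28 in shE2F1 cells. PAX2, a gene of the kidney and the optic nerve, had 2.92 and 2.56, the latter being the highest of the family in shE2F1 cells. At PAX6, a gene of eye formation with 66 annotated start sites, the values were 1.97 in each. The 7 marked PAX genes were thus the same in both libraries and their highest −log10 q lay between 1.60 and 3.24 in control shRNA and between 1.97 and 2.56 in shE2F1 cells.

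In the LHX family 5 of 8 genes were marked in each library, though LHX1 was marked only in control shRNA cells and LHX9 only in shE2F1 cells. LHX2, a gene of the forebrain and the eye, had the highest values of the family, 2.61 in control shRNA and 2.28 in shE2F1 cells. In the DLX family, which acts in the forebrain, jaw and limbs, 3 of 6 genes were marked in control shRNA and 4 in shE2F1 cells. DLX4 led both libraries with 3.21 and 2.90, and its neighbour DLX3 had folds of 3.53 and 3.08. The additional gene in shE2F1 cells was DLX6, at 1.89. IRX genes were marked at 2 of 6 and 3 of 6, with IRX2 in the lead at 2.86 and 3.06 and IRX1 added in shE2F1 cells at 1.59.

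NKX genes were marked at 3 of 14 in each library, the same 3 in both, NKX1-2, NKX2-1 and NKX6-3. NKX2-1, the lung and thyroid factor, lay under a single peak of 12359 bp in control shRNA cells (chr14:36512126-36524484, fold 4.35, −log10 q 3.99) and of 12594 bp in shE2F1 cells (chr14:36512081-36524674, fold 3.55, −log10 q 2.93). These domains also reach a start of the neighbouring gene SFTA3. SIX-family genes were marked at 1 of 6 and 2 of 6, SIX6 with 1.56 and 2.11 and SIX5 in shE2F1 cells. TBX genes were marked at 3 of 13 in control shRNA cells, namely TBX6, TBX10 and TBX20, and at 6 of 13 in shE2F1 cells.

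By the −log10 q and fold of its promoter peak, TBX6 stood apart from the other 61 genes. Its peak had a −log10 q of 20.1 and a fold of 10.4 in control shRNA cells (chr16:30091726-30092159) and 23.0 and 10.3 in shE2F1 cells (chr16:30091569-30092276). It was 434 bp and 708 bp wide and sat on the start site, within 18 bp of it at its middle in control shRNA cells and within 2 bp in shE2F1 cells. In GSK126 cells an E2F1 peak of 439 bp, chr16:30091739-30092177, lay on the same bases with a fold of 7.83. The next highest −log10 q was 3.99 in control shRNA cells, at NKX2-1, and 3.80 in shE2F1 cells, at SIX5. TBX6 was therefore the only gene of the 62 with a value of 5 or more, beside 2.60% of all genes in control shRNA and 9.19% in shE2F1 cells. In shE2F1 cells 5 of 14 promoter peaks of the widely expressed genes reached 5, and 0 of 29 of the other developmental factor genes. In control shRNA cells it was 0 of 5 and 0 of 18. These values are averages over a peak, so they do not rank a narrow peak fairly against a wide domain such as that of NKX2-1.

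Around the canonical TSS, the start of the principal annotated transcript, the 62 genes lacked the summit that all genes showed. The base at the TSS lay under an H3K27me3 peak in 7 of the 62 genes in control shRNA cells, 11.3%, and in 8 in shE2F1 cells, 12.9%. Over all genes the values were 11.5% and 30.6%. Further out the order was the other way. At 10 kb downstream 17.7% and 21.0% of the 62 genes lay under a peak, beside 5.09% and 6.45% of all genes. The median gene length is 7.84 kb for the 62 genes and 27.5 kb for all genes, so this point lies past the end of most of the 62. Their curve is also uneven, with 9.68% at 8750 bp and 22.6% at 9750 bp downstream in control shRNA cells. The 60 other developmental factor genes had 3.33% and 11.7% at the TSS and 15.0% in each library 10 kb downstream.

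**Figure D3:**
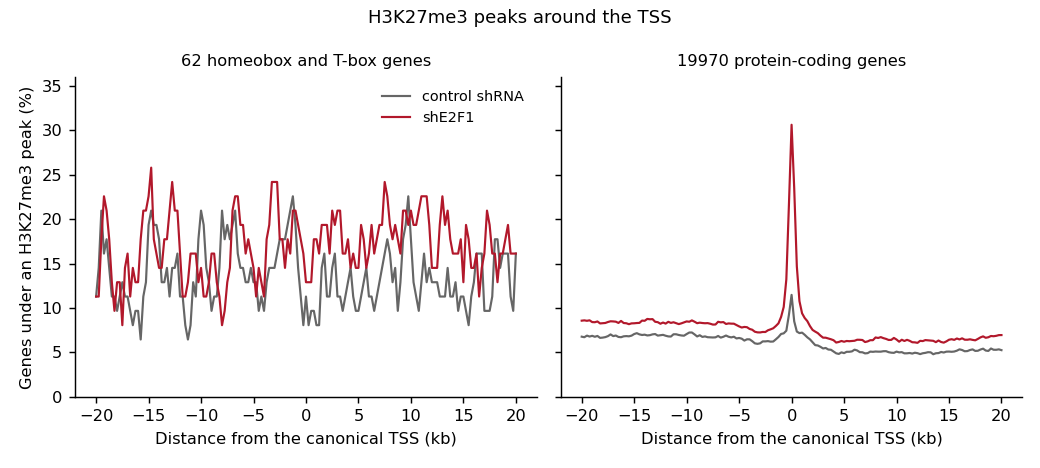
Percent of genes under an H3K27me3 peak by distance from the canonical TSS in kb, upstream to the left, for the 62 genes and for all 19970 protein-coding genes in control shRNA (grey) and shE2F1 (red) cells. All genes peak at the TSS at 11.5% and 30.6%, and the 62 genes vary without a summit there, at 11.3% and 12.9%.

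By the median, promoter peaks of the 62 genes were also wider. Their median width was 1110 bp over 43 peaks in control shRNA cells and 1431 bp over 47 peaks in shE2F1 cells, and over all genes it was 927 bp and 792.5 bp. Peaks of 2 kb or more were 25.6% and 40.4% of those at the 62 genes and 25.9% and 22.5% of those at all genes. The median fold was near the same at all of them, 3.16 and 3.08 at the 62 genes and 3.20 and 3.07 at all genes.

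Genes with most of their body under H3K27me3 were more frequent among the 62 than among all genes, with NKX2-1 and several PAX genes in the lead. The median share of the gene body under H3K27me3 peaks was 1.08% in control shRNA and 6.20% in shE2F1 cells for the 62 genes, and 0% and 0.392% for all genes. The order of these medians rests on peaks with a −log10 q under 2. With at least 2 or at least 5 both were 0% for the 62 genes and for all genes. The −log10 q of a broad peak is an average over it, so this cut also drops wide peaks. Among them was a PAX2 peak of 17098 bp with 1.93 in shE2F1 cells. At least 50% of the body was covered in 7 of the 62 genes in control shRNA cells, 11.3% (4.66 to 21.9), beside 2.91% of all genes. In shE2F1 cells this held for 8 genes, 12.9% (5.74 to 23.9), beside 4.25% of all genes. Both intervals lie above the share of all genes, though this 50% measure was not a planned one. Among the 60 other developmental factor genes it was 3 in each library, 5% (1.04 to 13.9), an interval that holds the share of all genes. With a −log10 q of at least 2 the shares of the 62 genes were 3.23% and 6.45%, beside 0.936% and 1.12% of all genes. At 5 or more none of the 62 genes had 50% covered. The 62 genes are shorter, with a median length of 7.84 kb against 27.5 kb, and the part of length in these shares was not tested.

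NKX2-1, which is 4758 bp long, was covered over 100% of its length in both libraries. PAX2 was covered over 69.8% in control shRNA and 83.1% in shE2F1 cells, PAX7 over 56.8% and 70.6% and DLX3, a gene of skin, tooth and bone formation, over 54.3% and 81.2%. These 3 genes had more of their body covered in shE2F1 cells. PAX4 was covered over 59.9% and 54.4%, PAX5, the B cell factor, over 51.8% and 50.6%, and IRX2 over 53.0% and 59.0%, values that lay close together. PAX5 is the longest of the 62 genes at 201000 bp and carried 45 separate peaks in control shRNA and 39 in shE2F1 cells. The eighth gene in shE2F1 cells was NKX2-8, at 50.7% after 49.1% in control shRNA cells.

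By family the median cover in control shRNA and shE2F1 cells was 31.8% and 46.0% for PAX, 8.63% and 19.5% for DLX, 4.35% and 10.5% for LHX and 1.04% and 5.81% for TBX. For IRX it was 0% and 8.83%, and for NKX and SIX-family genes it was 0% in both. Cover was higher in shE2F1 cells in 28 of the 62 genes, lower in 8, 0 in both libraries in 25 and the same in 1. Over all 19970 genes it was higher in 9747, lower in 1904, 0 in both in 8278 and the same in 41. Higher cover in shE2F1 cells was thus no more frequent among the 62 genes than among all genes. The shE2F1 list covers more of the chromosomes as a whole, 5.90% against 4.72%, and the part of this in the counts was not tested.

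**Figure D4:**
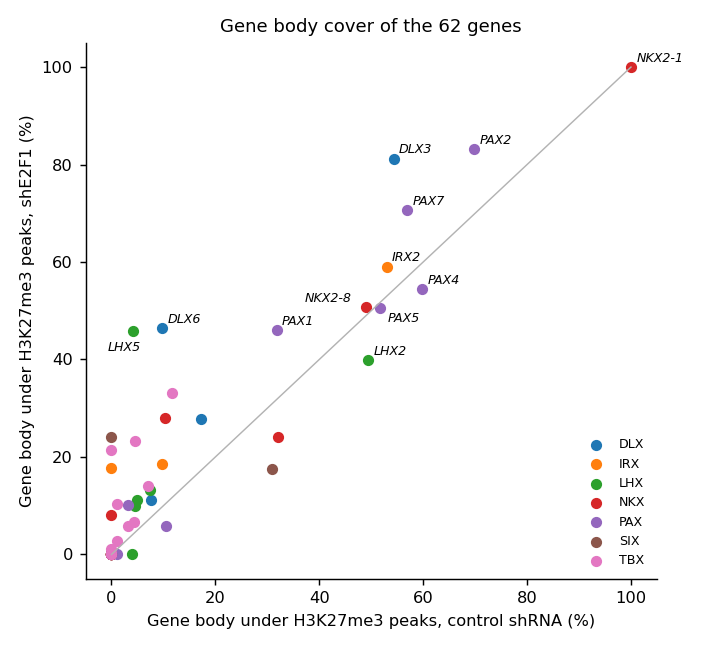
Percent of the gene body under H3K27me3 peaks in control shRNA (x) and shE2F1 cells (y) for the 62 genes, coloured by family, with the line of equal cover. NKX2-1 lies at 100% on both axes, DLX3 (54.3% and 81.2%) well above the line and LHX2 (49.3% and 39.9%) below it.

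E2F1 was found at few of these promoters. A gene was scored where the summit of an E2F1 peak lay in its promoter. In untreated cells this held for 1 of the 62 genes, 1.61% (0.0408 to 8.66), beside 5.85% of all genes. In DMSO cells it held for 8, 12.9% (5.74 to 23.9), beside 33.5% of all genes, and in GSK126 cells for 17, 27.4% (16.9 to 40.2), beside 51.5%. The intervals in DMSO and GSK126 cells lie below the share of all genes. The 60 other developmental factor genes had 0, 5 and 13 such genes, and the 16 widely expressed genes 3, 15 and 15. In GSK126 but not DMSO cells 10 of the 62 genes had a peak, 16.1% (8.02 to 27.7), beside 18.7% of all genes. Only TBX3, a T-box gene of limb and mammary gland formation, had one in DMSO but not GSK126 cells, 1.61% beside 0.796% of all genes. Its fold was 3.30 from 11 fragments at the summit, with a −log10 q of 2.10, where the lowest value in that list was 2.01.

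LHX4, a gene of the pituitary and of motor neurons, had an E2F1 peak in all 3 lists, with a fold of 4.42 in untreated, 5.26 in DMSO and 6.77 in GSK126 cells. The summit held 8, 22 and 30 fragments. The untreated peak, chr1:180230978-180231197, contains the 2 motif words in the LHX4 window printed above. Its −log10 q was 2.12, where the lowest value in that list was 2.08. In DMSO cells LHX4 had 2 promoter peaks, and the 201 bases around each summit hold 0 motif words. Those around the GSK126 summit hold 1. The highest folds were at IRX3, an Iroquois gene of neural and limb patterning, with 7.63 in DMSO and 16.8 in GSK126 cells, from 29 and 62 fragments at the summit. No H3K27me3 peak lay at the IRX3 promoter or over its body in either library.

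Folds in GSK126 cells were higher than in DMSO cells at all 7 genes with a promoter peak in both. SIX5 had 6.33 in DMSO and 9.88 in GSK126 cells, and IRX5 had 7.17 and 8.50. SIX2, a gene of kidney formation, had 3.52 and 7.23. The median log2 ratio of GSK126 over DMSO was 0.64 (range 0.25 to 1.14). Over the 6539 genes with a peak in both lists the median was 0.73, and the ratio was above 0 in 6354 of them, so the 7 genes lay within what most genes showed between these lists. Among the 10 genes with a peak in GSK126 and not DMSO cells the highest folds were 7.83 at TBX6, 6.64 at LHX6, 6.48 at TBX2 and 5.97 at DLX4.

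**Figure D5:**
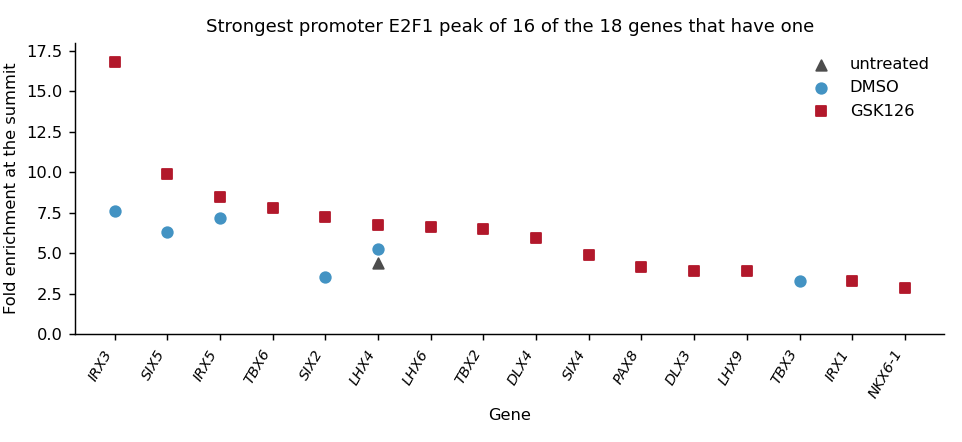
Fold enrichment at the summit of the strongest promoter E2F1 peak in untreated (triangle), DMSO (circle) and GSK126 (square) cells for 16 of the 18 genes with one, ordered by the GSK126 value (DMSO at TBX3). IRX3 is highest at 16.8, and LHX4 is the only gene with a triangle.

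Of the 6 SIX-family genes 3 had an E2F1 promoter peak in DMSO and 4 in GSK126 cells, the most for its size of any family, and of the 6 IRX genes 2 and 3 had one. Of 9 PAX genes only PAX8, a gene of thyroid and kidney, had one, in GSK126 cells. Of the 13 TBX genes 1 and 2 had one, of the 14 NKX genes 1 and 2, of the 8 LHX genes 1 and 3 and of the 6 DLX genes 0 and 2. PAX genes thus led in H3K27me3 and SIX-family genes in E2F1 peaks, but the families were not divided by this. The IRX counts of 2 and 3 of 6 lie close to the shares of all genes, 33.5% in DMSO and 51.5% in GSK126 cells. H3K27me3 promoter peaks in shE2F1 cells were also found at 3 of 6 IRX, 4 of 6 DLX and 5 of 8 LHX genes. These counts rest on few genes per family, and no difference between families was tested.

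The motif words lay within 100 bp of 3 of 12 E2F1 promoter summits of these genes in DMSO cells, 25%, and of 4 of 17 in GSK126 cells, 23.5%. Over all promoter summits the shares were 35.8% and 30.9%, and in untreated cells 55.1%. A match is a match of letters only.

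Set against each other, 18 of the 62 genes had an E2F1 promoter peak in at least 1 list and 44 had none. Among the 18, H3K27me3 promoter peaks were found at 5 in control shRNA (27.8%) and 9 in shE2F1 cells (50.0%). The 4 additional genes were IRX1, LHX9, SIX5 and TBX3. The 9 without an H3K27me3 promoter peak in either library include IRX3, IRX5, NKX6-1, PAX8, SIX2, SIX4 and TBX2. Among the 44 genes without an E2F1 promoter peak, 19 (43.2%) and 21 (47.7%) were marked. Over all genes the shares were 21.0% and 59.5% with an E2F1 peak and 33.8% and 42.1% without one. The 60 other developmental factor genes did not show a larger difference with E2F1, with 6 of 13 marked in each library with an E2F1 peak (46.2%) and 11 (23.4%) and 15 (31.9%) of 47 without one. None of these differences was tested, and that of the 62 genes with E2F1 rests on 4 genes, of which only SIX5 had a −log10 q of 3 or more. At SIX5 the shE2F1 H3K27me3 peak overlapped the E2F1 peaks of DMSO cells (chr19:45767669-45769605) and GSK126 cells (chr19:45767674-45769662). At IRX1, LHX9 and TBX3 the H3K27me3 promoter peak did not overlap the E2F1 promoter peak.

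For 15 of the 62 genes no peak of any list lay at a promoter or over the body, 24.2% (14.2 to 36.7), beside 19.4% of all genes. The interval holds the share of all genes. These 15 were DLX1, DLX2, IRX4, NKX1-1, NKX2-2, NKX2-3, NKX2-4, NKX2-5, NKX2-6, NKX3-2, NKX6-2, SIX3, TBX18, TBX19 and TBX22. They include NKX2-5, the early heart factor, and SIX3, a forebrain factor, and 7 of the other 13 are NKX genes. A gene without a listed peak may still carry a mark too weak to be called at this depth.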

How the data were processed

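The peak lists of 5 ChIP-seq libraries from MDA-MB-231 cells were analysed, 3 for E2F1 and 2 for H3K27me3, with 1 library per group. Per the study's methods and the submitters' processing notes, the authors trimmed reads with cutadapt 4.5, aligned them to GRCh38 with Bowtie2 2.5.2 and called peaks per library with MACS2 2.2.9.1, in broad mode for H3K27me3. Which control library MACS2 used is not given in the sources used here. The deposited lists give each peak's fold enrichment, a ratio of signal to local background. They also give −log10 of the p-value and of the q-value, as deposited. A score and, for narrow peaks, the offset of the summit are also deposited, and the score was not used. Fold and q of a broad peak are averages over it, so they cannot be set against those of a narrow peak.

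Genes and TSSs came from GENCODE release 44. H3K27me3 was scored by an overlap of at least 1 bp with the 1 kb on either side of any TSS, and E2F1 by its summit in that window. The gene body ran from annotated start to end. Fragments at E2F1 summits were solved from fold and p-value, which gave whole numbers within a relative 0.0002 for 100%, 99.9% and 99.3% of untreated, DMSO and GSK126 peaks. RefSeq promoters matched 42 of the 62 genes by symbol, and all 65 were identical to the hg38 reference. Scripts ran in Python 3.11.15 with pandas 2.3.3, scipy 1.17.1 and pysam 0.24.0, and the scoring was tested on simulated peaks.

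With 1 library per group no test between conditions was made. Depth as read totals was not analysed here. Named genes were the member with the highest H3K27me3 −log10 q of each family and library, the 5 with the most gene body cover per library, the highest E2F1 folds, those with an untreated E2F1 peak, those marked in 1 H3K27me3 library only and those without a peak. NKX1-2, NKX2-8 and LHX2 and the other genes given values were named after their values were seen. The 62 genes, the lists and the alternatives were chosen with earlier results of these data known. The 60 other developmental factors and 16 widely expressed genes are textbook lists. Values of some of the 62 genes are not reported here singly, though the counts include them.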

Additional observations from a re-analysis of the deposited data

How the results depend on the processing

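Of 53 recomputed values 41 stayed within their counting interval or the spread over genes and 12 did not. Only the H3K27me3 difference and the E2F1 log2 ratio can change sign, and neither turned negative. A −log10 q of at least 2 left H3K27me3 at 22.6% of the 62 promoters in control shRNA and 27.4% in shE2F1 cells, beside 14.6% and 28.9% of all genes. At 5 or more it left 1.61% in each, TBX6, beside 2.60% and 9.19%, and it left E2F1 in untreated cells at 0%. The control shRNA share, 38.7% beside 27.1% in the main setting, thus lay below that of all genes at this threshold. Genes with at least 50% of the body covered, a measure that was not planned, were also recomputed after seeing the data. They were 3.23% of the 62 in control shRNA cells at 2 or more and 0% in both libraries at 5 or more. The median body cover was 0% in both libraries at either threshold, within its interval from 0. With the midpoint of a peak in the window the control shRNA share was 25.8% (all genes 23.2%), and with the canonical TSS only the shE2F1 share was 35.5% (all genes 45.0%). With the 1056 strongest peaks of each E2F1 list the shares in DMSO and GSK126 cells were both 0%, beside 5.94% and 5.98% of all genes. These settings keep fewer peaks, count fewer overlaps or look at fewer sites, and the part of this in the changes was not tested. The difference between the H3K27me3 libraries ranged from 0 to 11.3 percentage points. Restricting both sets to genes with a CpG-rich promoter was an alternative chosen after seeing the data and moved none of the shares out of its interval. No paired analysis was possible because each group has 1 library, and no library could be left out. The spread between libraries of the same condition is unknown, and marks below the authors' thresholds were not detectable.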

Other observations

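Neighbouring genes of these families did not share a promoter peak in any list. Within 200 kb of each other lay 12 pairs. The densest H3K27me3 cover was over DLX4 and DLX3, whose span of 26637 bp on chromosome 17 lay 49.2% under peaks in control shRNA and 61.9% in shE2F1 cells, with 2 E2F1 peaks in GSK126 cells and 0 in DMSO cells. The span from NKX2-1 to NKX2-8 on chromosome 14 was covered over 35.0% and 35.3%. From NKX2-2 to PAX1 on chromosome 20 the span of 207465 bp was covered over 34.4% and 37.0% by 47 and 48 peaks, although NKX2-2 itself had no peak. From DLX6 to DLX5 on chromosome 7 cover was 21.1% and 19.9%. By contrast the span from DLX1 to DLX2 on chromosome 2 was at 0% in both libraries and held 1 E2F1 peak in DMSO and 2 in GSK126 cells between the genes, outside their promoters and bodies.

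A CpG-rich start, with at least 50% GC and an observed over expected CpG of at least 0.6 within 500 bp of the canonical TSS, was found at 49 of the 62 genes (79.0%) and at 64.9% of all genes. Of these 49, 36.7% carried an H3K27me3 promoter peak in control shRNA and 44.9% in shE2F1 cells, beside 24.7% and 58.0% of all CpG-rich genes. Without an E2F1 peak in any list, the shares were 41.2% and 44.1% of 34 such genes beside 35.7% and 49.6% of 3577. E2F1 peaks were at 16.3% of the 49 genes in DMSO and 28.6% in GSK126 cells, beside 47.3% and 71.5% of all CpG-rich genes. LHX5, a forebrain gene without a promoter peak, had 4.09% of its body under H3K27me3 in control shRNA and 45.8% in shE2F1 cells, from 1 peak of 419 bp and 2 peaks of up to 2377 bp. DLX6 had 9.73% and 46.4%.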
